A study of Oryctolagus cuniculus with 4 samples.

Results

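The spots described here are those with MYH11, the smooth muscle myosin heavy chain of vessel walls, in 4 Visium sections of rabbit supraspinatus muscle. Visium captures RNA from a tissue section on barcoded spots, and each spot can hold parts of several fibers and cells. A spot was taken as a MYH11 spot where it was selected on 2 or more MYH11 UMIs (unique molecular identifiers, each counting 1 captured molecule). This rule found 203 of 6970 spots. They were compared, within each section, with the 5907 spots that had 0 MYH11 UMIs and 500 or more UMIs in all, named spots without MYH11 below. The 471 spots with 1 MYH11 UMI, and the 389 spots with 0 MYH11 UMIs and fewer than 500 UMIs, belonged to neither class. MYH11 chose the spots, so its own counts are given as a description and it was left out of every total and comparison.

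The muscles came from skeletally mature New Zealand White rabbits, 6 months old and female, and a tear of the rotator cuff was modeled by cutting the supraspinatus tendon (tenotomy). There was 1 section for each condition, namely a fresh healthy muscle, a healthy muscle stored for 6 years, and muscles harvested 2 and 16 weeks after tenotomy and then stored for 6 years. All were snap-frozen pieces of the posterior distal muscle belly. The labels give the stored healthy and the 16-week section the same animal number, right and left, so that the 4 sections came from 3 animals. Spots of 1 section are not replicates, and differences between conditions, storage and animals cannot be told apart.

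Smooth muscle cells wrap arteries, arterioles and larger veins, and contract when calcium activates the myosin that MYH11 encodes, which then slides along smooth muscle actin. Inside this layer lies the endothelium, which signals to it through Notch ligands and nitric oxide, and around it lies a connective tissue coat with elastic and collagen fibers. In skeletal muscle the larger vessels run in the connective tissue between bundles of fibers, while capillaries lie beside single fibers and carry pericytes in place of a muscular wall.

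MYH11 spots were few in every section. There were 36 of 1950 spots in the fresh healthy section (1.85%, exact binomial 95% interval 1.30 to 2.55) and 58 of 2440 in the stored healthy section (2.38%, 1.81 to 3.06). At 2 weeks there were 51 of 854 (5.97%, 4.48 to 7.78) and at 16 weeks 58 of 1726 (3.36%, 2.56 to 4.32). The share was highest in the 2-week section, which also had the fewest spots, and with 1 section per condition the difference was not tested. A rule on raw UMIs also depends on the depth of the spots. Over all spots MYH11 had 260 of 7017798 UMIs in the fresh healthy and 382 of 12536450 in the stored healthy section. At 2 weeks it had 334 of 4079313 and at 16 weeks 420 of 4743522, so per UMI it was highest at 16 weeks. Many MYH11 spots lay at the threshold, with 12, 30, 27 and 29 of them at exactly 2 MYH11 UMIs in the fresh healthy, stored healthy, 2-week and 16-week section, and 13, 20, 15 and 15 at 4 or more. The most in a single spot were 37, 30, 28 and 52. The 203 spots used 197 barcode sequences, of which 6 marked MYH11 spots in 2 sections and 0 in more. Of all 2931 barcodes, 2118 occurred in 2 or more sections, but few spots of any section were MYH11 spots. The 16-week section shared the barcodes of 30 fresh healthy, 40 stored healthy and 43 2-week MYH11 spots. Of these, 1, 2 and 1 were MYH11 spots at 16 weeks too, beside 3.36% of all its spots.

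Depth differed little between both classes in 3 sections. The median of UMIs per spot was 4438 in MYH11 spots and 3779 in spots without MYH11 in the fresh healthy section, 5646 and 5213 in the stored healthy section, 4645 and 4655 at 2 weeks, and 2291.5 and 2225 at 16 weeks. The summed UMIs of a section were 161561 to 331923 in MYH11 spots and 3368596 to 11357982 in spots without MYH11, so the MYH11 spots set the precision. Mitochondrial genes took a smaller part of the UMIs in MYH11 spots of every section. This part was 42.6% against 49.5% in the fresh healthy section, 42.0% against 49.6% in the stored healthy one, 27.8% against 34.6% at 2 weeks and 25.8% against 35.1% at 16 weeks.

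Levels below are UMIs of a gene per 10000 UMIs of its class. The log2 ratio compares the level in MYH11 spots with that in spots without MYH11 of the same section, after 0.5 UMIs were added to each sum, with an exact 95% interval that covers counting error only. A gene was measurable in a section where 5 or more UMIs were expected in its MYH11 spots, and past the fold at a log2 ratio of 1 or more in either direction. For a gene in summed spots, fewer cells of a type and less RNA per cell cannot be told apart.

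In the fresh healthy section 111 of 1353 measurable genes were higher past the fold in MYH11 spots (8.20%) and 22 were lower (1.63%). The stored healthy section had 273 higher (14.3%) and 32 lower (1.68%) of 1909. At 2 weeks 180 were higher (8.71%) and 40 lower (1.94%) of 2067, and at 16 weeks 205 were higher (11.0%) and 55 lower (2.95%) of 1864. Of the 1249 genes measurable in all 4 sections, 12 were higher past the fold in every section (0.961%) and 0 were lower in every section (0%). A further 21 were higher in 3 sections and 44 in 2. The median log2 ratio of all measurable genes was not at 0, but at 0.22, 0.34, 0.23 and 0.35 in the fresh healthy, stored healthy, 2-week and 16-week section, and single genes should be read against it.

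Of the 12 genes that recurred in all 4 sections, 9 have a symbol and 3 are known in the count table by identifier alone. The 9 were ACTA2, CALD1, APP, CAVIN3, ID1, VWF, RAMP2, S100A4 and CAV2.

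ACTA2, the alpha actin of smooth muscle, was the recurring gene with the largest ratio. Its level was 25.3 per 10000 UMIs in MYH11 spots against 0.633 in spots without MYH11 of the fresh healthy section, from 444 and 406 UMIs. It was 11.6 against 0.759 in the stored healthy section (385 and 862 UMIs). At 2 weeks it was 18.4 against 1.31 (437 and 440 UMIs), and at 16 weeks 26.0 against 2.18 (420 and 885 UMIs). MYH11 spots were thus far above the others in each section, while the level in spots without MYH11 was lowest in the fresh healthy and highest in the 16-week section. The log2 ratio was 5.32 (5.12 to 5.52) in the fresh healthy section, 3.94 (3.76 to 4.11) in the stored healthy one, 3.81 (3.62 to 4.01) at 2 weeks and 3.58 (3.41 to 3.75) at 16 weeks. The fresh healthy interval lay above the other 3, and the 2-week interval overlapped those of the stored healthy and 16-week sections. These intervals cover counting error only, and the difference between sections was not tested.

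ENSOCUG00000023919, for which the count table gives no symbol, followed ACTA2 in size. Its level was 14.2 against 0.716 in the fresh healthy section, 9.04 against 0.912 in the stored healthy section, 13.4 against 1.13 at 2 weeks and 30.6 against 2.86 at 16 weeks. The log2 ratios were 4.31, 3.31, 3.57 and 3.42 in the same order, and again the fresh healthy section was the highest.

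CALD1 encodes caldesmon, which binds actin and tropomyosin. It was at 1.48 against 0.327 per 10000 UMIs in the fresh healthy section, 1.75 against 0.636 in the stored healthy section, 4.33 against 1.13 at 2 weeks and 6.14 against 1.91 at 16 weeks. Its log2 ratios of 2.20, 1.47, 1.94 and 1.69 had overlapping intervals. Both classes of spots held more CALD1 in the sections after tenotomy than in the healthy ones, which was not tested.

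**Figure D1:**
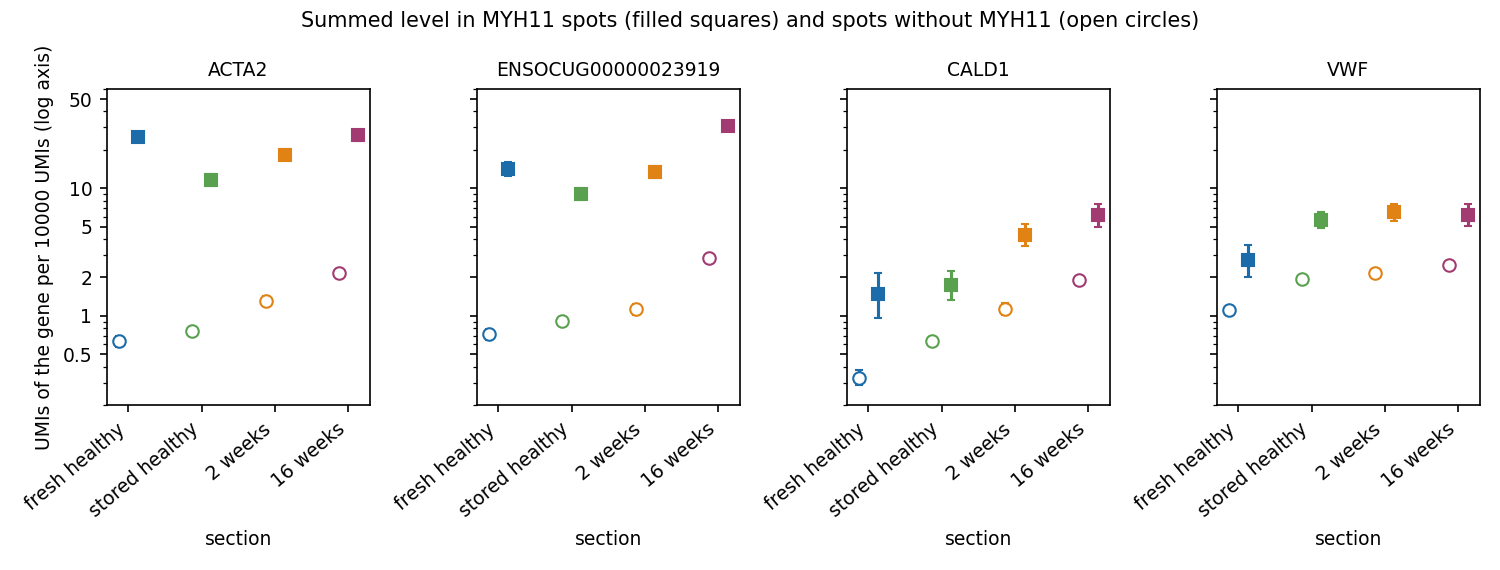
Level of ACTA2, ENSOCUG00000023919, CALD1 and VWF in UMIs per 10000 UMIs (log axis) in each section, with filled squares for the sum over MYH11 spots, open circles for the sum over spots without MYH11, and bars for the 95% Poisson interval of the counts. In all 4 sections the square lies above the circle, and for ACTA2 the squares sit between 11.6 and 26.0 and the circles between 0.633 and 2.18.

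Proteins of caveolae, the small membrane pits that are dense in endothelium and smooth muscle, made up 2 of the recurring genes. CAVIN3, a coat protein of caveolae, had log2 ratios of 1.88 (fresh healthy), 1.76 (stored healthy), 1.24 (2 weeks) and 1.27 (16 weeks). CAV2, caveolin 2, had 1.24, 1.27, 1.53 and 1.26 in the same order. CAV1, its partner, was past the fold in 3 sections, with 1.39, 1.10 and 1.21 in the fresh healthy, 2-week and 16-week section, and just below it in the stored healthy section at 0.96.

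Endothelial genes recurred beside the smooth muscle genes under the main rule. With ratios scaled by the median ratio of each section, VWF, RAMP2 and CAV2 did not recur, while ID1 did. With spots of 1 or more MYH11 UMIs none of them recurred, nor did CALD1. VWF, the clotting glycoprotein made by endothelium, was at 2.73 against 1.11 per 10000 UMIs in the fresh healthy section, 5.64 against 1.94 in the stored healthy section, 6.47 against 2.17 at 2 weeks and 6.20 against 2.51 at 16 weeks. Its log2 ratios of 1.31, 1.54, 1.58 and 1.31 were close to each other. ID1, a target of BMP signaling in endothelium, had 1.59, 1.69, 1.24 and 1.41. RAMP2, which pairs with the calcitonin receptor-like receptor to bind adrenomedullin, had 1.92, 1.26, 1.04 and 1.30, so at 2 weeks it was at the edge of the threshold with an interval of 0.55 to 1.48.

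APP, the amyloid precursor protein, had log2 ratios of 2.01, 1.71, 1.40 and 1.12 from the fresh healthy to the 16-week section, and S100A4, a calcium-binding protein, had 1.72, 1.05, 1.22 and 1.43. The other 2 genes without a symbol were abundant. ENSOCUG00000034178 was at 8.83 against 1.89 in the fresh healthy section and at 52.5 against 20.3 at 16 weeks, with log2 ratios of 2.23, 1.42, 1.41 and 1.38. ENSOCUG00000032417 was at 4.84 against 1.84 in the fresh healthy section and at 24.9 against 10.9 at 16 weeks, with log2 ratios of 1.40, 1.49 and 1.24 in the first 3 sections and an interval of 1.05 to 1.35 at 16 weeks.

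**Figure D2:**
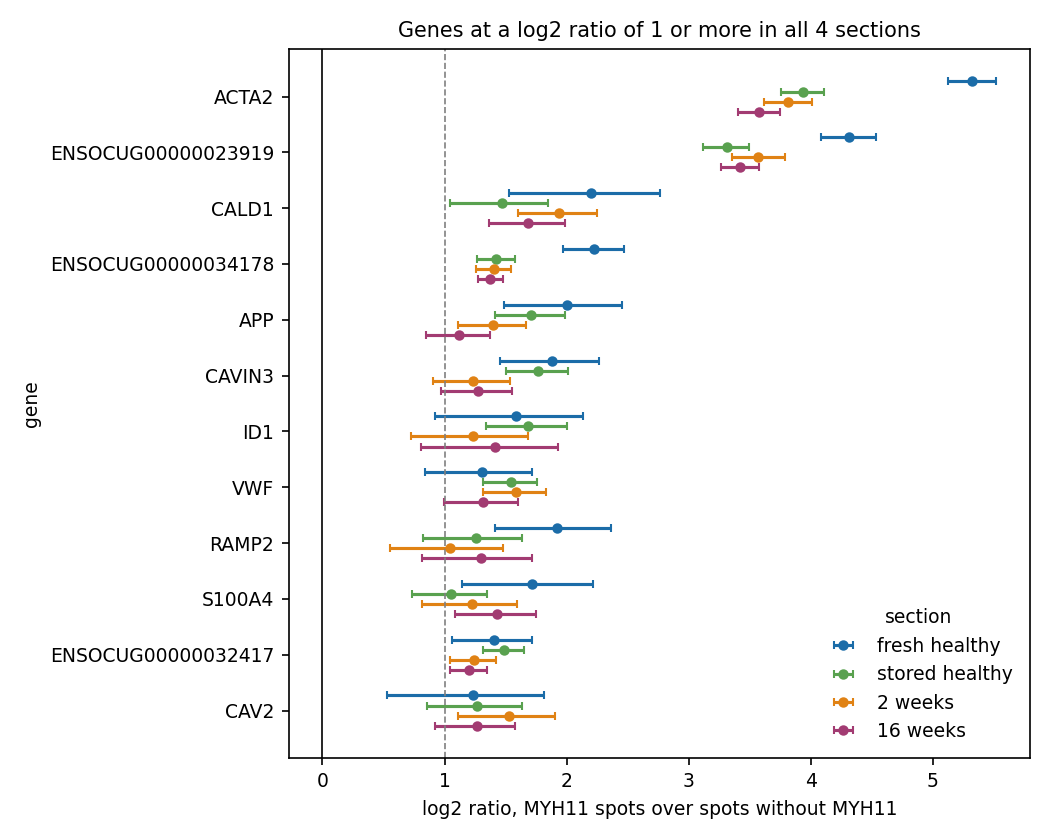
Log2 ratio of MYH11 spots over spots without MYH11 (horizontal axis) for the 12 genes past the fold in all 4 sections, with 1 point per section and bars for the exact 95% interval of counting error; the dashed line marks the threshold of 1. ACTA2 and ENSOCUG00000023919 lie between 3.31 and 5.32, and the lowest point is RAMP2 at 2 weeks with 1.04.

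A fit over the 4 sections then asked which genes differed by more than the spread between sections. The test moderates the spread of each gene toward that of other genes. The UMIs of both classes were summed per section, which gave 8 sums, and edgeR's quasi-likelihood test was run with the section as a block on 2729 genes. It called 546 genes higher (20.0%) and 38 lower (1.39%) in MYH11 spots at an adjusted p under 0.05. The median log2 fold of all genes fitted was 0.29 with library totals and -0.03 with TMM scaling, under which 199 genes were higher and 189 lower. This split is why the fold of a single gene is best read as its distance from the median gene. The 12 recurring genes were chosen on these same sums, so their calls in this fit give them no separate support. All 12 were among the genes higher. Their edgeR log2 folds ran from 4.15 ± 0.24 (standard error implied by the moderated test, 4 sections) for ACTA2 (adjusted p = 3.5e-07) to 1.32 ± 0.13 for CAV2 (adjusted p = 3.6e-05) and 1.32 ± 0.14 for S100A4 (adjusted p = 5.2e-05). Such an error is not the spread of a gene's own section ratios, whose standard deviation was 0.79 for ACTA2. The stored healthy and 16-week sections share an animal, and with their sums joined 490 genes were higher and 28 lower.

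Smooth muscle contractile genes formed a list of 35, of which 13 could be fitted. In edgeR's test 5 of these 13 rose in MYH11 spots and 0 fell, beside 20.0% higher and 1.39% lower of all genes fitted. The median log2 fold of the 13 was 0.12 beside 0.29 for all genes. Besides ACTA2 and CALD1 the genes that rose were ACTG2, MYL9 and LMOD1, named after their values were seen. ACTG2, the gamma actin of smooth muscle, had 79 UMIs in MYH11 spots and 55 in spots without MYH11 of the fresh healthy section, 35 and 116 in the stored healthy section, 64 and 45 at 2 weeks and 31 and 57 at 16 weeks. In the fresh healthy and 2-week sections the few MYH11 spots thus held more ACTG2 UMIs than all spots without MYH11 together. Its edgeR log2 fold was 4.33 ± 0.32 (adjusted p = 3.0e-06). Actin genes are near copies of each other, and whether the counting kept the reads of ACTA2 and ACTG2 apart was not tested.

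MYL9, the regulatory light chain of smooth muscle myosin, had 25, 27, 15 and 25 UMIs in MYH11 spots from the fresh healthy to the 16-week section, against 48, 78, 53 and 82 in the many more spots without MYH11. It was too low to be measurable within a section, and its edgeR log2 fold over the sections was 3.21 ± 0.32 (adjusted p = 3.8e-05). LMOD1, which nucleates actin filaments in smooth muscle, reached 1.03 ± 0.26 (adjusted p = 0.013 with edgeR), with log2 ratios of 0.68, 0.53, 0.90 and 2.25, and was past the fold at 16 weeks alone. With TMM its adjusted p was 0.062.

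Of the 35 genes 25 had a feature under their name, and those outside the 13 fitted were not tested in this fit. The other fitted genes of this list did not pass the test, among them genes that skeletal muscle fibers also use. TPM1, a tropomyosin, had an edgeR log2 fold of -0.25 ± 0.11 (adjusted p = 0.12), Tpm2 had -0.15 ± 0.08 (adjusted p = 0.22) and DES, the intermediate filament desmin, had -0.19 ± 0.15 (adjusted p = 0.41). TMM scaling and DESeq2 each called these 3 lower. With no filter on low genes edgeR fitted 24 genes of the list, of which 8 rose and 1 fell (TPM1). KCNMB1, PPP1R14A and ACTN1 then rose beside the genes above. Of all 11336 genes in that fit 573 were higher and 42 lower. SYNPO2 had the lowest edgeR log2 fold of the list at -1.11 ± 0.51 (adjusted p = 0.14), and SMTN had 0.33 ± 0.28 (adjusted p = 0.44). The summed list did not rise in all sections, with ratios of 1.14, 0.92, 1.04 and 0.88 from the fresh healthy to the 16-week section. Of its 6426 UMIs in MYH11 spots of the fresh healthy section, TPM1 and Tpm2 gave 2628 and 2979. TAGLN and CNN1, further defining genes of smooth muscle, were not analysed here under those names, and MYH11 chose the spots. The label of vessel wall came with the choice of MYH11 and was not tested. ACTA2, MYL9, ACTG2 and CALD1 rose, but they are the members that rose in these same sums. The list as a whole did not rise in all sections. Of the 13 genes fitted, 8 lay above 0 with library totals and 5 with TMM.

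Pericyte genes were scarce. RGS5, a defining pericyte marker, had 1 UMI in all MYH11 spots, in the stored healthy section, against 72 in spots without MYH11. PDGFRB had 4 against 20. Neither had enough expected UMIs to be measurable in a section. Of 15 pericyte genes on the list 4 could be fitted, and 3 of them rose in edgeR's test, beside 20.0% of all genes fitted. COX4I2, a subunit of cytochrome oxidase that is rich in pericytes, had a log2 fold of 2.17 ± 0.27 (adjusted p = 0.0002), ADAMTS1, a secreted protease, had 2.04 ± 0.22 (adjusted p = 5.7e-05) and HIGD1B had 1.23 ± 0.24 (adjusted p = 0.0041, and 0.056 with DESeq2). ABCC9, a subunit of potassium channels in pericytes and muscle, had -0.25 ± 0.18 (adjusted p = 0.37), and TMM called it lower.

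The endothelium list held 35 genes, and 10 of the 11 that could be fitted rose in edgeR's test, beside 20.0% of all genes fitted, with a median log2 fold of 1.28. They were VWF, CAV1, CAV2, ID1, RAMP2, NOS3, SPARCL1, CD34, ROBO4 and GNG11, and TMM kept all but ROBO4 and GNG11, where 199 of all 2729 genes were higher. With the sections of 1 animal joined GNG11 did not pass. NOS3, which makes nitric oxide in endothelium, had 11, 17, 11 and 10 UMIs in MYH11 spots from the fresh healthy to the 16-week section against 79, 135, 65 and 72 in spots without MYH11, and a log2 fold of 1.88 ± 0.28 (adjusted p = 0.00061 with edgeR). CD34, a surface protein of endothelium and of fibroblasts, had log2 ratios of 2.33, 1.43, 1.16 and 0.48. CCN1, a matrix protein induced by stretch and growth factors, did not pass edgeR's test (0.82 ± 0.28, adjusted p = 0.055). It did pass with no filter on low genes (adjusted p = 0.00083), without the MYH11 spot with the most UMIs in each section (0.048), without the stored healthy section (0.044) and without the 2-week section (0.036, all with edgeR). Its log2 ratios ran from 1.99 in the fresh healthy section to -0.24 at 2 weeks.

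Summed over the list, endothelial genes stood at 21.0 against 7.02 per 10000 UMIs in the fresh healthy section, a ratio of 2.99 (2.68 to 3.33), and at 23.2 against 9.56 in the stored healthy one, a ratio of 2.42 (2.25 to 2.61). At 2 weeks they stood at 26.1 against 11.8 (2.21, 2.03 to 2.41) and at 16 weeks at 37.4 against 16.98 (2.20, 2.02 to 2.39). PECAM1 and CDH5, which mark endothelium in most tissues, had few UMIs in both classes and were not measurable in any section. PECAM1 had 5, 2, 7 and 2 UMIs in the MYH11 spots of the 4 sections, in all 16 against 161 in spots without MYH11. Its log2 ratio was 2.63 (0.80 to 3.88) in the fresh healthy section and 2.12 (0.59 to 3.30) at 2 weeks. It was 0.34 in the stored healthy section and 0.71 at 16 weeks. CDH5 had 1 UMI against 12 in all. CCL21, a chemokine of lymphatic endothelium, had 6, 131, 85 and 138 UMIs in MYH11 spots from the fresh healthy to the 16-week section, against 16, 311, 311 and 820 in spots without MYH11. Its log2 fold was 2.68 ± 0.29 (adjusted p = 6.7e-05 with edgeR), and it was the 1 gene of the 7 on the lymphatic list that could be fitted.

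Signals between endothelium and smooth muscle were mostly low in UMIs. JAG1, a Notch ligand of endothelium and smooth muscle, had 20, 28, 25 and 21 UMIs in MYH11 spots against 56, 113, 85 and 163 in spots without MYH11. Its log2 fold of 2.55 ± 0.31 (adjusted p = 0.00016 with edgeR) was the largest of the 7 genes fitted among 40 on the signaling list. Of these 7 genes 5 rose, beside 20.0% of all genes fitted. HES1, a transcription factor induced by Notch, had 0.96 ± 0.22 (adjusted p = 0.0078) and AGTR1, the angiotensin II receptor, had 1.41 ± 0.28 (adjusted p = 0.0042). TGFB3 and CCN2 also passed the test, while BMP4 and IGFBP5 did not. With TMM only JAG1 and AGTR1 passed, where 199 of all 2729 genes were higher.

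On the list of elastic fibers and vessel matrix 8 of 10 genes fitted rose in edgeR's test, beside 20.0% of all genes fitted, with a median log2 fold of 1.07. With TMM 4 of them also passed, where 199 of all 2729 genes were higher. MGP, which keeps calcium from depositing in vessel walls, was at 17.9 against 9.59 per 10000 UMIs in the fresh healthy section, 64.4 against 26.9 in the stored healthy section, 73.6 against 35.1 at 2 weeks and 27.5 against 13.3 at 16 weeks. Its log2 fold of 1.07 ± 0.09 had the smallest error on this list (adjusted p = 6.3e-06). AEBP1, which binds collagen, had 1.38 ± 0.17 and OGN, a small proteoglycan, had 1.28 ± 0.18. Of the basement membrane genes fitted 4 of 7 rose, and 3 with TMM or with the sections of 1 animal joined, among them COL4A2 of type IV collagen (0.95 ± 0.11, adjusted p = 9.8e-05 with edgeR) and LAMA4, a laminin chain of vessels (1.10 ± 0.16, adjusted p = 0.00054). COL4A1, the partner of COL4A2, did not pass (0.08 ± 0.47, adjusted p = 0.94), with 4, 1, 5 and 4 UMIs in MYH11 spots.

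Of 14 fibrillar collagen and fibroblast genes fitted 13 rose in edgeR's test, beside 20.0% of all genes fitted, with a median log2 fold of 1.02. With TMM 8 of them rose, where 199 of all 2729 genes were higher. The list as a whole stood at 35.0 against 18.1 per 10000 UMIs in the fresh healthy section, 126.7 against 50.3 in the stored healthy section, 258.1 against 135.5 at 2 weeks and 176.8 against 111.4 at 16 weeks. The ratio of these sums was largest in the stored healthy section (2.52, 2.44 to 2.60) and smallest at 16 weeks (1.59, 1.53 to 1.65). FN1, fibronectin, had the largest log2 fold of the list at 1.48 ± 0.20 (adjusted p = 0.00038), and COL1A1 and COL1A2, the chains of type I collagen, had 1.12 ± 0.19 and 1.18 ± 0.14. The part of connective tissue under the spots in the ratios of the vessel genes was not tested.

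**Figure D3:**
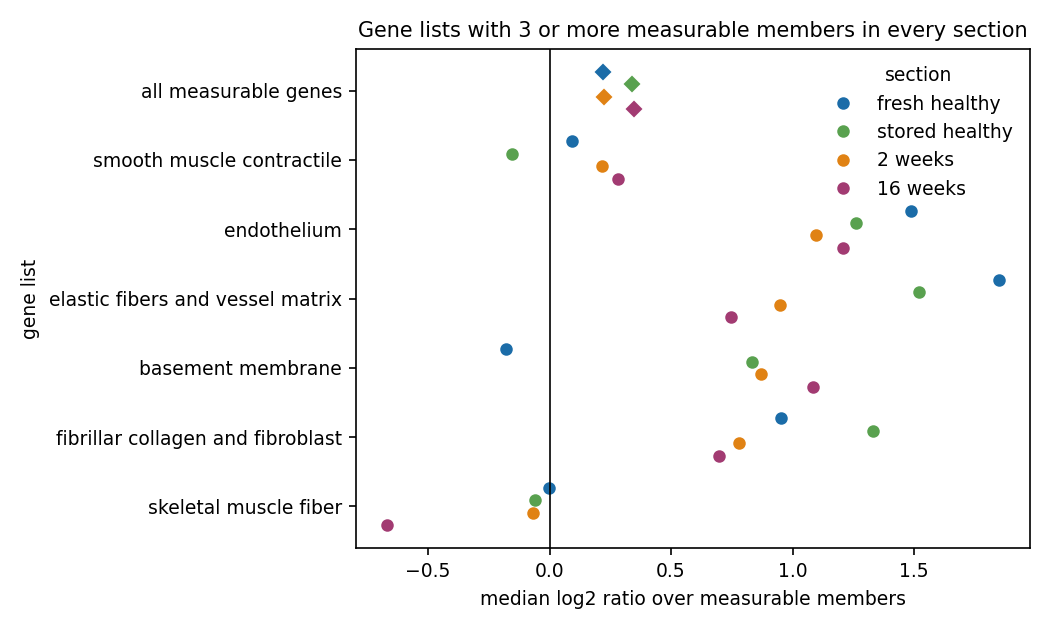
Median log2 ratio (horizontal axis) over the measurable genes of 6 lists in each section, with diamonds for the median over all measurable genes. The endothelium medians lie between 1.10 and 1.49 in all sections, above the medians of all genes at 0.22 to 0.35, while the skeletal muscle fiber medians lie at 0 or below and reach -0.67 at 16 weeks.

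Other cells were given by their marker lists. Of 9 macrophage genes fitted 5 rose, namely STAB1, CD68, CD74, CSF1R and C1QC, beside 20.0% of all genes fitted, and only STAB1 did so with TMM, where 199 of all 2729 genes were higher. CD68 had 1, 17, 10 and 12 UMIs in MYH11 spots of the 4 sections. The summed macrophage list was at 1.42 against 0.627 per 10000 UMIs in the fresh healthy section and at 9.24 against 6.36 at 16 weeks. S100B, the 1 gene fitted of the Schwann cell and nerve list, had 1.36 ± 0.22 (adjusted p = 0.0012 with edgeR). None of the genes of the lists for mast cells and lymphocytes or for blood could be fitted, and their sums were 1 to 9 and 1 to 24 UMIs in the MYH11 spots of a section. The part of these cells in the results was not tested.

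Of 7 adipocyte genes fitted SNCG, a synuclein found in fat and nerve, was the only one to pass edgeR's test (2.74 ± 0.49, adjusted p = 0.0021), beside 20.0% higher of all genes fitted. It had 79 UMIs in MYH11 spots against 97 in spots without MYH11 of the fresh healthy section, 46 against 119 in the stored healthy section, 21 against 99 at 2 weeks and 338 against 3744 at 16 weeks. Its log2 ratio was 4.90 and 3.74 in the healthy sections and 1.61 and 1.18 after tenotomy, where its level in spots without MYH11 was higher. ADIPOQ, a defining adipocyte marker, had 5 UMIs in MYH11 spots of all sections against 48 in spots without MYH11. In the fresh healthy section it had 2 against 0. The whole adipocyte list stood at 10.2 against 3.62 per 10000 UMIs in the fresh healthy section, 4.28 against 3.22 in the stored healthy section, 7.82 against 7.01 at 2 weeks and 44.2 against 24.97 at 16 weeks. Few genes carried these sums. Of the 180 UMIs in MYH11 spots of the fresh healthy section SNCG gave 79 and LPL 87, and at 16 weeks SNCG gave 338 of 713.

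With mitochondrial genes in the totals, the summed level of skeletal muscle fiber genes was near that of the rest of the tissue in 3 sections and lower at 16 weeks. Its members differed among themselves. Mitochondrial genes took a smaller part of the UMIs in MYH11 spots, which raises the level of all other genes there. The sum was 1132 against 1087 per 10000 UMIs in the fresh healthy section, 1034 against 1061 in the stored healthy section and 1705 against 1780 at 2 weeks. At 16 weeks it was 606.9 against 929.2, a ratio of 0.653 (0.640 to 0.666). MYH11 spots in all sections thus held much fiber RNA. Some genes of slow fibers were as low at 2 weeks as at 16 weeks, with ratios of 0.68 and 0.65 for MYL2, 0.69 and 0.70 for TNNC1, 0.71 and 0.69 for MYL3 and 0.63 and 0.63 for ATP2A2, named after their values were seen. The fast genes MYH1 and ATP2A1 were at 1.04 and 1.04 at 2 weeks and at 0.50 and 0.50 at 16 weeks. MYH1, the fast IIx myosin, was at 273.7 against 198.9 in the fresh healthy section, 61.1 against 82.7 in the stored healthy section, 482.5 against 465.1 at 2 weeks and 39.7 against 79.0 at 16 weeks. It was thus above the rest of the tissue in the fresh healthy section and below it in the stored healthy and 16-week sections. MYH7, the slow myosin, was at 29.6 against 33.8, 133.3 against 100.4, 51.2 against 81.1 and 119.4 against 161.7 in the same order. Neither had 1 direction in all sections, and neither passed edgeR's test (MYH1 -0.22 ± 0.17, adjusted p = 0.38, and MYH7 -0.22 ± 0.13, adjusted p = 0.27). MYH1 did pass it with no filter on low genes, at the same fold (-0.22, adjusted p = 0.025), and TMM called MYH7 lower.

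Over the sections the edgeR log2 folds of all 24 fitted fiber genes lay below 0, and 3 passed the test, namely MYBPC1 (-0.46 ± 0.12, adjusted p = 0.015), MYL3 (-0.33 ± 0.10, adjusted p = 0.033) and MYL1 (-0.33 ± 0.11, adjusted p = 0.0496), beside 1.39% of all genes fitted. With the sections of 1 animal joined MYL1 did not pass and 2 of the 24 lay above 0. With TMM 20 of the 24 passed and with DESeq2 17, beside 189 and 145 lower of all 2729 genes. All 24 stayed below 0 with both, but both moved the median fold of all genes down, from 0.29 to -0.03 and -0.05. That all 24 stayed there is thus no test of the direction. With totals without mitochondrial genes edgeR called 15 of the 24 lower, beside 81 lower of all 2842 genes. The median fold of all genes was then 0.12. Within the fresh and stored healthy sections 11 of 23 and 11 of 24 measurable fiber genes lay above 0. At 2 and 16 weeks 5 of 24 and 0 of 23 did. Of all measurable genes 67.6%, 74.3%, 67.9% and 70.7% lay above 0 from the fresh healthy to the 16-week section. Without the 16-week section 4 of the 24 genes fitted lay above 0 and 1 passed, and without the 2-week section 0 passed. Of 29 genes encoded by mitochondria 15 fell in edgeR's test and 0 rose, beside 1.39% lower of all genes fitted, with a median log2 fold of -0.31 and a range of -0.74 to 0.23, and with TMM 19 fell. COX1, a subunit of cytochrome oxidase, had -0.31 ± 0.07 and ND5, a subunit of complex I, had -0.39 ± 0.08. MYH8 and the other 3 genes fitted of the list for regenerating fibers did not pass, with log2 folds from -0.13 to 0.71.

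Within the class, MYH11 spots were not alike. ACTA2 had no UMI in 4 of 36 MYH11 spots of the fresh healthy section, 10 of 58 of the stored healthy section, 13 of 51 at 2 weeks and 9 of 58 at 16 weeks. The 5 spots with the most ACTA2 held 51.1%, 41.8%, 49.2% and 39.0% of its UMIs in the MYH11 spots of these sections. MYH11 spots as a whole held 45.2%, 26.3%, 42.6% and 27.2% of the ACTA2 UMIs of their section, so the greater part of ACTA2 lay in spots with fewer than 2 MYH11 UMIs.

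To compare shares of spots at 1 depth, each spot was thinned to 1000 UMIs. ACTA2 was then found in 67.6% of MYH11 spots and 4.92% of spots without MYH11 in the fresh healthy section (88.9% and 16.1% before thinning), and in 51.7% and 6.24% (82.8% and 23.4% before) of those of the stored healthy muscle. At 2 weeks it was found in 45.1% and 10.6% (74.5% and 35.4%) and at 16 weeks in 68.4% and 18.4% (84.5% and 32.7%). Thinned shares for VWF were 20.6% and 10.4%, 32.8% and 16.1%, 39.2% and 17.3%, and 40.4% and 21.5% in the same order. ACTA2 thus set the classes further apart than VWF did. The thinning was a single random draw, and with another draw some shares of the few MYH11 spots moved by more than 10 percentage points.

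The spots just inside and just outside the rule differed by degree. ACTA2 stood at 3.23 per 10000 UMIs in spots with 1 MYH11 UMI and at 5.76 in spots with exactly 2 in the fresh healthy section, at 2.60 and 6.03 in the stored healthy section, at 3.10 and 3.97 at 2 weeks and at 4.50 and 11.5 at 16 weeks. Spots with exactly 2 were 9.10, 7.94, 3.04 and 5.25 times above spots with 0. In spots with 4 or more MYH11 UMIs the level reached 57.4, 22.98, 57.6 and 56.5. These spots held 330 of the 444 ACTA2 UMIs of MYH11 spots in the fresh healthy section, 261 of 385 in the stored healthy section, 358 of 437 at 2 weeks and 248 of 420 at 16 weeks.

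Endothelial genes climbed less steeply than ACTA2. At 2 weeks the list was at 11.8 per 10000 UMIs in spots with 0 MYH11 UMIs, at 18.0, 17.8 and 18.4 in spots with 1, 2 and 3, and at 48.9 in spots with 4 or more. At 16 weeks it was at 16.98 and 18.97 in spots with 0 and 1 and at 34.7, 34.8 and 44.4 in spots with 2, 3 and 4 or more. Fibrillar collagen genes reached 485.9 in spots with 4 or more MYH11 UMIs at 2 weeks, from 135.5 in spots with 0, and fiber genes were at 1192 there, from 1780. At 16 weeks fiber genes were at 495.6 in spots with 4 or more, from 929.2. In the healthy sections the fiber genes were at 969.1 and 979.8 in spots with 4 or more, from 1087 and 1061.

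**Figure D4:**
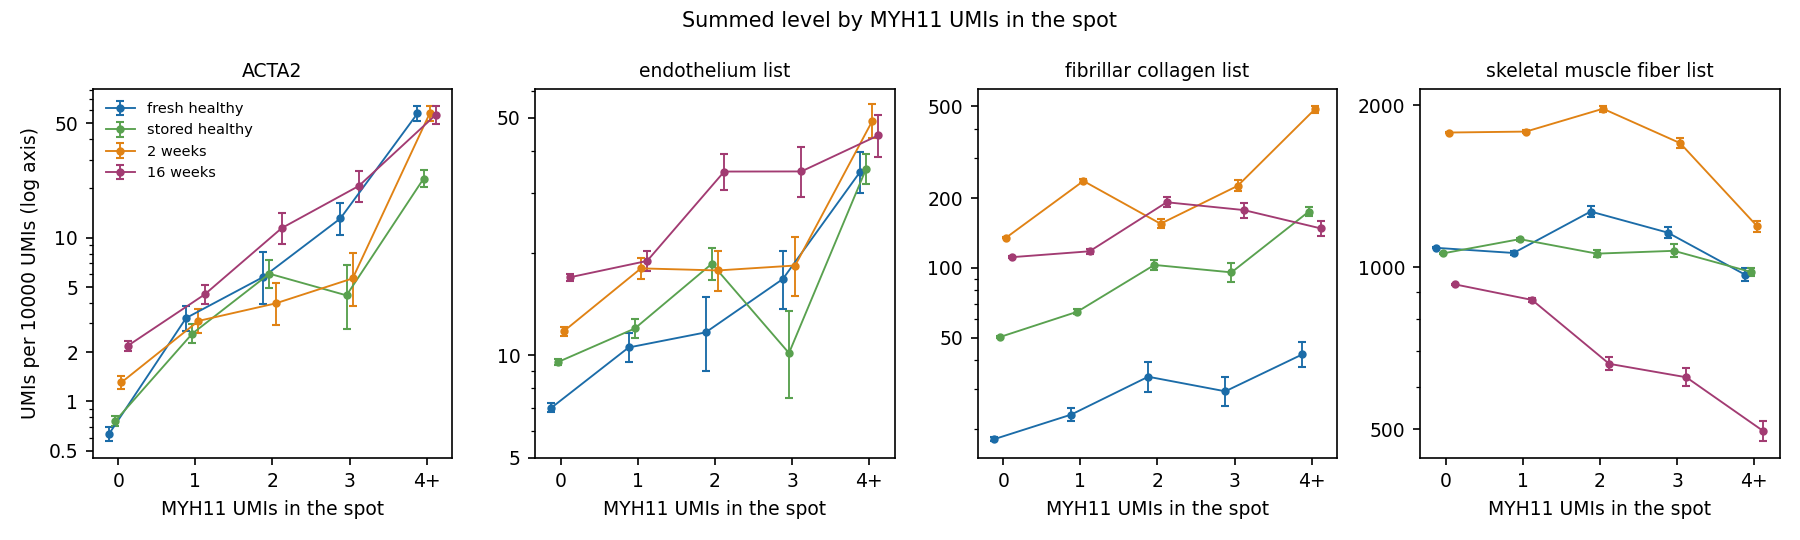
Summed level (UMIs per 10000 UMIs, log axes with a separate range in each panel) of ACTA2 and of 3 gene lists in spots grouped by their MYH11 UMIs, with 1 line per section and bars for the 95% Poisson interval of the counts. ACTA2 is higher at 4 or more MYH11 UMIs (22.98 to 57.6) than at 0 (0.633 to 2.18) in every section, and the fiber list is lowest at 4 or more in every section.

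Some genes were measurable and past the fold in 1 section alone, and the difference between sections was not tested. APOD, a lipid-binding protein of fibroblasts and nerve, had a log2 ratio of 2.22 in the fresh healthy section against 0.78 to 0.99 in the others, and SF3B2, a splicing factor, had 1.77 there. In the stored healthy section SFRP2, a secreted Wnt modulator of fibroblasts, had 2.17, STAB1, a scavenger receptor of macrophages and some endothelium, had 2.17 and EMILIN1, a protein of elastic fibers, had 2.13. At 2 weeks CPQ had 1.44, TMEM59 had 1.39 and ARHGDIB had 1.36. At 16 weeks NPR2, the receptor of C-type natriuretic peptide, had 1.43, GTPBP1 had 1.36 and ATP6V1B2, a subunit of the proton pump of lysosomes, had 1.36. SFRP2, STAB1 and EMILIN1 had ratios of 1.32, 1.44 and 1.65 in the fresh healthy section too, but with fewer than 5 expected UMIs. The ratios of these genes were above 0 in the other sections as well, other than that of GTPBP1, which was -0.59 at 2 weeks with an interval that reached 0.33, and that of CCN1, described above.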

How the data were processed

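Visium libraries were made from 4 cryosections of snap-frozen rabbit supraspinatus. The submitters' processing notes name Space Ranger 1.2.0 and OryCun2.0, and the authors deposited raw UMI counts of spots under tissue without normalization. The table holds 21139 features, of which 9803 have no symbol. No identifier matched the reference table, whose assembly differs, so names come from the deposited features, and promoter sequences were not examined here.

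Each of the 4 samples was its own condition. UMIs were summed over MYH11 spots and over spots without MYH11 in each section, with 37 mitochondrial genes kept in the totals. Ratios within a section carry intervals for counting error and no test, since there is 1 section per condition. Doublets were not called. Counts summed per section and class were fitted with edgeR 4.0.16 (R 4.3.3; quasi-likelihood, Benjamini-Hochberg over 2729 genes with 10 or more expected UMIs, section as a block), with DESeq2 1.42.0 as an alternative. The standard error was taken from the log2 fold and its F value, so it rests on the moderated spread and not on the section ratios alone. The section pairs both classes because they lie in the same tissue slice. Spots were thinned in 1 random draw in Python 3.11.15. Scripts were tested on simulated data. The genes named were the recurring genes, the members of 15 lists past the fold in all sections, the defining markers, and for each section the 3 genes with the largest log2 ratio past the fold there alone. The spots and lists were chosen with earlier results of these data known, and other names were chosen after their values were seen. Total UMIs ranged from 4079313 to 12536450 per section. Some results are not reported here. Intervals cover counting error only.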

Additional observations from a re-analysis of the deposited data

Results flagged for a closer look

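Spots with 1 MYH11 UMI belonged to neither class, and ACTA2 in them was above its level in spots with 0 MYH11 UMIs in each section. The ratio was 5.11 (exact 95% interval 4.15 to 6.26, 125 UMIs in 93 spots) in the fresh healthy section, 3.42 (2.93 to 3.97, 216 UMIs in 143 spots) in the stored healthy section, 2.38 (1.95 to 2.87, 144 UMIs in 92 spots) at 2 weeks and 2.06 (1.77 to 2.39, 220 UMIs in 143 spots) at 16 weeks. These values were singled out because they lie in spots that the comparison leaves out, and 1 section per condition gives no test of them.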

How the results depend on the processing

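Counts over the sections add up the calls of the 4 sections, so that a gene past the fold in several counts once in each. ACTA2 and ENSOCUG00000023919 remained past the fold in all sections used under 15 of 16 alternatives. These include leaving out each section in turn and the lower limit of 2 expected UMIs. A gene past the fold in all 4 sections cannot fail those, so they give no support. After thinning to 1000 UMIs ACTA2 and ENSOCUG00000023919 had too few expected UMIs. Then 1 gene recurred (ENSOCUG00000034178), 0 of them on a list. Over the sections 229 calls were higher and 74 lower, beside 769 and 149 with all UMIs. With 3 or more MYH11 UMIs (105 spots) 23 genes recurred, 11 of them among the 12. With 1 or more (674 spots) 7 recurred, 2 of them among the 12 (ACTA2 and ENSOCUG00000023919). Scaled by the median ratio 5 of the 12 recurred, 3 of them on a list, with 331 calls higher and 306 lower over the sections. VWF, CAV2, RAMP2 and CAVIN3 were among the genes lost there. With 2 expected UMIs 31 genes recurred, 14 of them on a list, with 1993 calls higher and 449 lower over the sections, and with 10 expected UMIs 329 calls were higher and 49 lower. With 2 UMIs added 33 calls were lower, and with totals without mitochondrial genes 255 were, where APP, RAMP2 and S100A4 no longer recurred. In 3 sections, leaving out 1 each, 13 to 29 genes were higher, 0 lower, and 7 to 10 of them on a list, with 29 without the fresh healthy and 23 without the 16-week section. The share of all measurable genes that are on a list is not given for these alternatives. The counts on a list are thus no result about the lists. The edgeR calls moved with the scaling, to 199 higher and 189 lower with TMM, to 142 and 145 with DESeq2, and to 309 and 81 without mitochondrial genes. Without the section as a block 5 were higher and 0 lower, with 132 and 6 at an unadjusted p under 0.05. Leaving out a section gave 305 to 426 higher and 18 to 26 lower, with 305, 331 and 351 higher without the stored healthy, 2-week and 16-week section, and 22, 18 and 22 lower without the fresh healthy, 2-week and 16-week section. Without the MYH11 spot with the most UMIs in each section, added after the data were seen, 558 were higher and 33 lower, and S100A4 did not recur. MYH1, at -0.22, turned to 0.054 without the block and ran from -0.45 to 0.028 as each section was left out. Beyond the fewer UMIs or samples that an alternative leaves, the cause was not tested. The few UMIs in MYH11 spots limit low genes, and promoter motifs were not run.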

Other observations

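Some genes outside the lists, named after their values were seen, were also higher in MYH11 spots. VIM, the intermediate filament vimentin, had log2 ratios of 2.82, 1.65, 1.12 and 0.88 from the fresh healthy to the 16-week section, and an edgeR log2 fold of 1.57 ± 0.24 (adjusted p = 0.00071). TIMP1, an inhibitor of matrix proteases, had 1.83 ± 0.19 (adjusted p = 5.5e-05 with edgeR) and MMRN2, a matrix protein of endothelium, had 1.82 ± 0.20 (adjusted p = 5.7e-05). PPP1R12A, a subunit of the phosphatase that acts on the myosin light chain, had 2.02 ± 0.29 (adjusted p = 0.00051 with edgeR). RBPMS2 and RBPMS, RNA-binding proteins of smooth muscle, had 2.33 ± 0.35 and 1.54 ± 0.24. SLIT3, a secreted guidance protein, had 2.25 ± 0.31 (adjusted p = 0.00043 with edgeR).

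Genes without a symbol were among the strongest. ENSOCUG00000011970 had 40, 60, 21 and 22 UMIs in MYH11 spots and an edgeR log2 fold of 3.84 ± 0.28 (adjusted p = 3.0e-06). ENSOCUG00000014935 had 17, 58, 51 and 47 UMIs and a log2 fold of 3.48 ± 0.21 (adjusted p = 4.0e-07). Neither had enough UMIs to be measurable in all 4 sections, and with spots of 1 or more MYH11 UMIs both were measurable and past the fold in all 4.

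Among the 38 genes lower, STRIT1, a small protein that activates the calcium pump of muscle, had -0.57 ± 0.11 (adjusted p = 0.0032 with edgeR) and SMPX, a small muscle protein, had -0.57 ± 0.14 (adjusted p = 0.013). PFKFB1, an enzyme that sets the pace of glycolysis, had the lowest fold of those with a symbol at -2.17 ± 0.57 (adjusted p = 0.017 with edgeR).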
